A study of Mus musculus with 2 samples.

Results

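The genes for mitochondrial ribosomal proteins were followed across the cell types of mouse tumors. They were all genes of the deposited expression table whose symbols begin with Mrpl or Mrps followed by a digit, with pseudogene names left out, which gave 78 of 16416 genes. The mitoribosome is the ribosome inside mitochondria. Its proteins are encoded in the nucleus, made in the cytosol and imported, and it translates the few mRNAs of the mitochondrial genome, all of which encode subunits of the respiratory chain and ATP synthase. Many of its proteins have a bacterial homologue, and others are found in mitochondria but not in bacterial ribosomes. By role, 30 of the 78 encode large subunit proteins with a bacterial homologue and 21 large subunit proteins specific to mitochondria. For the small subunit the numbers are 16 and 10. The last, Mrps36, is named as a ribosomal protein but encodes a part of the oxoglutarate dehydrogenase complex. Mrps18a and Mrps30 carry small subunit names, and their proteins sit in the large subunit.

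The cells came from tumors engrafted into mice whose heat shock factor 1 (HSF1, the main transcription factor of the heat shock response) has alanine in place of serines 303 and 307, called S303/7A, and into wild-type (WT) mice. The genotype is that of the host. Tumor cells were engrafted. The labels do not state their own Hsf1 genotype, the tumor line, or the strain and age of the mice. After sorting of live cells, those with CD45, a marker of blood-derived cells, and those without it were combined 5 to 1 for droplet sequencing of RNA 3′ ends. Each genotype is 1 library, made from pooled tumors (4 mice, as far as the labels tell). Differences between genotypes therefore have no replicate check, and no p-value is given. Fewer cells of a kind and less RNA per cell cannot be told apart in a pooled tumor, and levels are therefore given within the authors' cell classes and clusters.

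The S303/7A library held 4802 cells and 72802161 UMIs (unique molecular identifiers, each marking 1 captured RNA molecule), and the WT library held 6654 cells and 87075636 UMIs. Median depth was 13028 UMIs per cell in S303/7A and 7698 in WT. Mitochondrial ribosomal protein transcripts made up 0.644% of UMIs in S303/7A and 0.700% in WT, and no member was at 0 in either library. The libraries shared 48 cell barcodes, 1.00% of the S303/7A cells and 0.721% of the WT cells. In NK, CD8T, Treg, MF, Mo and Tumor the class's own marker list had the highest summed level of the lists checked, in both libraries. In DC, 4 dendritic cell markers summed to 10.5 CP10K (UMIs per 10000) in S303/7A and 12.5 in WT, below the macrophage list in S303/7A (21.1) and the monocyte list in WT (29.2). The class deposited as Stromal (cluster C15) had a summed level of 5 stromal and vessel markers of 1.40 CP10K in S303/7A and 0.898 in WT, below the 2.28 and 2.30 of the Tumor class, while 4 tumor markers summed to 52.3 and 37.7. It is called cluster C15 here. In pDC (cluster C19), 3 markers of that class summed to 62.0 CP10K in S303/7A and 72.1 in WT. The monocyte list was higher there, at 76.4 and 113.

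The promoters of 4 members are shown because these genes stand at the ends of the patterns described below. Mrpl18 and Mrpl42 were among the members most raised in cycling cells, Mrps26 rose there too and was among the most variable across clusters, and Mrpl52 had the highest mean level and no common rise in cycling cells. Each sequence is the RefSeq window of 250 bases before to 50 after the annotated start (GRCm38.p6), read 5′ to 3′ on the gene's strand. Capitals mark a match, on either strand, to 1 of 6 motifs that were searched: CCGGAAG for the ETS family, to which GABPA belongs, AAGATGGC for YY1, GCATGCGC for NRF1, CACGTG for MYC-type E-boxes, CCAAT, and TTCNNGAA, an inverted pair of heat shock element units.
Mrpl18, minus strand, chr17:12916042-12916341: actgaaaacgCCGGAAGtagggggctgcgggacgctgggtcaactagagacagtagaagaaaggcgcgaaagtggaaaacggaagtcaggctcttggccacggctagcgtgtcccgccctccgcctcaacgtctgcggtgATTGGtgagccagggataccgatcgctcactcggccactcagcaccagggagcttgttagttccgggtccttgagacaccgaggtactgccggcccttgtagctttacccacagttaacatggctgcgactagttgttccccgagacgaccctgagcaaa
Mrpl42, minus strand, chr10:95501900-95502199: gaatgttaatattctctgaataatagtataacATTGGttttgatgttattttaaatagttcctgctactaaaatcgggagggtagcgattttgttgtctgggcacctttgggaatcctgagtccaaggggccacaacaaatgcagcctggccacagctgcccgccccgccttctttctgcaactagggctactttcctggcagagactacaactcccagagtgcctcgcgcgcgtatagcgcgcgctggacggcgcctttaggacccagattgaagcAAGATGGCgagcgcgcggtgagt
Mrps26, plus strand, chr2:130563507-130563806: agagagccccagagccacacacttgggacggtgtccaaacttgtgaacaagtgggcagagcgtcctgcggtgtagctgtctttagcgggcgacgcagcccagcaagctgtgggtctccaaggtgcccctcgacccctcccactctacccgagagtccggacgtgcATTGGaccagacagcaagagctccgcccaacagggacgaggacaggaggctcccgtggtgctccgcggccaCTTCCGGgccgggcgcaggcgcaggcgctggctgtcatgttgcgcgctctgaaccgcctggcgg
Mrpl52, plus strand, chr14:54426659-54426958: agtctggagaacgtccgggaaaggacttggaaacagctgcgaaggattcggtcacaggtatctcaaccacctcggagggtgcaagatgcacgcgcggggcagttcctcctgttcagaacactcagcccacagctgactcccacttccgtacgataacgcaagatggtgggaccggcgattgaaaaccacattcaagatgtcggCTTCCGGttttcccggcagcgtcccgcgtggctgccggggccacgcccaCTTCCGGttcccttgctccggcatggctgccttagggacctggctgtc
The Mrpl18 window holds an ETS-type match 240 bases and a CCAAT match 110 bases before the start. The Mrpl42 window holds a CCAAT match 218 bases before and a YY1 match 27 bases after it. In Mrps26 the ETS-type match lies 14 bases and the CCAAT match 85 bases before the start. Mrpl52 has a pair of ETS-type matches, the farther one 47 bases before the start.

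The windows of the other members were searched the same way. Promoters of 69 of the 78 members were matched by symbol, with 75 windows in all. The ETS-type letters were found for 26 of the 69 members (37.7%), against 17.6% of all 12025 genes with a window of this length. The YY1 letters were found for 12 members (17.4%, against 4.74%) and the NRF1 letters for 8 (11.6%, against 5.27%). These 3 factors are known regulators of nuclear genes for mitochondrial proteins. The CCAAT letters were as frequent in members as elsewhere (39.1%, against 42.4%). E-box letters were found for 5 members (7.25%, against 10.9%) and the heat shock element letters for 2 (2.90%, against 8.20%). ETS-type and heat shock element matches can overlap, and did so in 1 of the members' windows, that of Mrpl48. A match is a description of the letters and not evidence of binding.

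The 78 genes lie on 17 chromosomes, with 11 of them on chromosome 11 (GENCODE release M21, GRCm38). The start of a protein-coding gene on the opposite strand lay within 1 kb of the start of 33 members (42.3%, against 16.2% of 16234 genes of the table). Mrpl18 (chromosome 17, 12911349 to 12916345) has the start of Tcp1 there, and Mrpl51 (chromosome 6, 125191801 to 125196269) that of Ncapd2. Another gene of the table overlaps 24 members on the opposite strand and 3 on the same strand. Those 3 are Mrps6 with Slc5a3, Mrps24 with Urgcp and Mrps34 with Nme3, and their counts can hold reads of the partner. For Mrpl23, 99.6% of the 31-base words in the last 500 bases also occur in its copy Mrpl23-ps1, which is not in the deposited table, so values of Mrpl23 are uncertain. Mrpl22 and Mrpl53 also share over 50% of these words with other genes.

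Levels are given as CP10K, the mean over cells of UMIs per 10000 UMIs of the cell. A UMI is counted once per molecule whatever the transcript's length, but capture can differ between genes. Averaged over clusters and libraries, Mrpl52 stood highest at 2.64 CP10K, followed by Mrpl30 at 2.27, Mrpl33 at 2.12 and Mrps24 at 1.93. Mrpl20 (1.88), Mrps14 (1.73), Mrps33 (1.63) and Mrpl54 (1.61) completed the 8 highest, which together made up 25.6% of the summed level. Mrpl53 was the lowest at 0.0107 CP10K, and Mrps27, Mrps2, Mrps31, Mrps22 and Mrpl47 were all under 0.2. For Mrpl53, 100% of the words compared above are shared with Gm42688, which is not in the deposited table. Its low level is therefore uncertain, and the part of this sharing in it was not tested. Mrps27, the next lowest at 0.0673 CP10K, shares none of its words. With Mrpl53 left aside, captured transcript levels thus still differed widely among proteins of 1 complex.

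Cell types differed in the summed level of the 78 transcripts. The levels were alike in the S303/7A and WT libraries (Pearson r = 0.942 over 20 clusters with at least 20 cells in each library). Ranks differed in the middle, with C14 at 15 in S303/7A and 8 in WT. The cluster with the highest sum was the tumor cluster C04, at 79.2 CP10K in S303/7A and 81.7 in WT. The macrophage cluster C13 followed at 74.4 and 76.5, and the CD8 T cell cluster C11 at 72.9 and 74.9. In both libraries these 3 held ranks 1 to 3, and they are the clusters of their classes in which proliferation genes are highest. With mitochondrially encoded and cytosolic ribosomal protein genes out of the denominator C04 stayed first in both, while C11 and C13 held ranks 3 and 4 in S303/7A and ranks 2 and 5 in WT. Cluster C15 came next in S303/7A at 69.4, with 65.9 in WT.

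**Figure D1:**
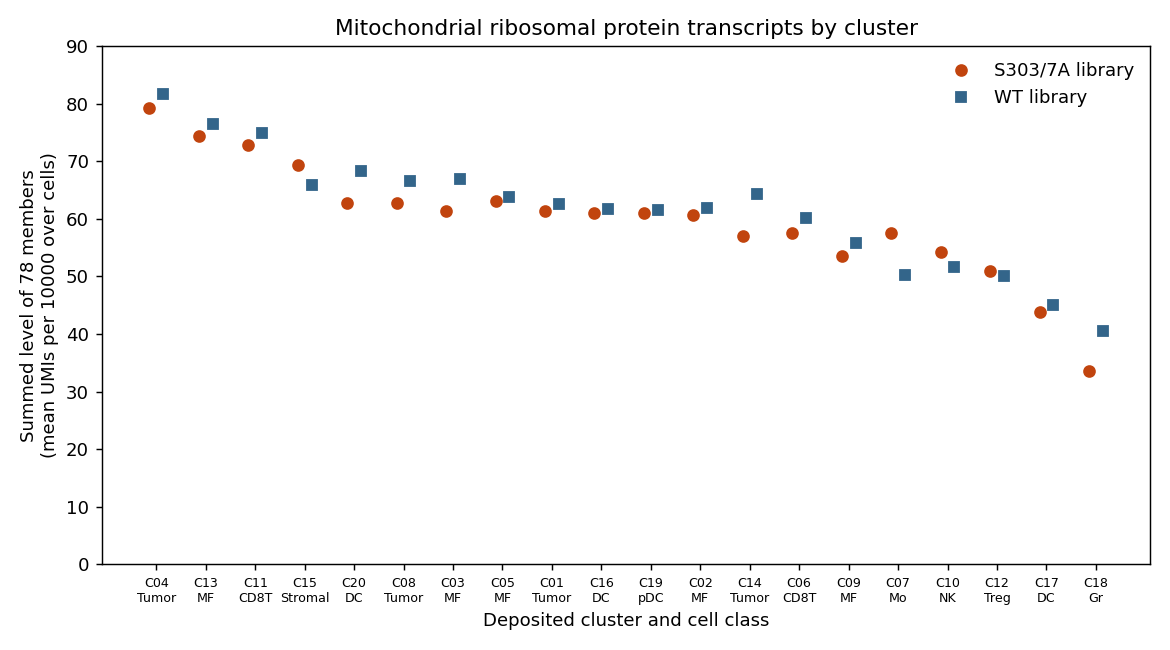
Summed level of the 78 members (vertical axis, mean UMIs per 10000 over cells) in each of 20 deposited clusters, with the deposited class under the cluster name. Circles are the S303/7A library and squares the WT library. C04, C13 and C11 stand highest in both, at 72.9 to 81.7, and C17 and C18 lowest.

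At the other end stood neutrophils (C18), migratory dendritic cells marked by Ccr7 (C17) and regulatory T cells (C12). They were the 3 lowest in both libraries of the 20 clusters with at least 20 cells in each. Left out by that rule were C21 and C22. B cells (C21) were at 37.5 CP10K in 14 S303/7A cells and 49.4 in 47 WT cells. C22, deposited as class Gr, was at 49.7 in 25 S303/7A cells and 66.3 in 9 WT cells. The neutrophil cluster was at 33.6 CP10K in 41 S303/7A cells and 40.5 in 39 WT cells, and its rank rests on shallow cells. Counted as summed UMIs it was at 52.9 (95% Poisson interval 49.7 to 56.4) in S303/7A and 49.5 (45.2 to 54.1) in WT. The cluster C17 was at 43.8 in S303/7A and 45.1 in WT, and 45.7 (44.3 to 47.1) and 46.3 (44.5 to 48.2) by summed UMIs. The ratio of C04 to C17 was 1.81 in S303/7A and 1.81 in WT. Regulatory T cells were at 50.9 in S303/7A and 49.98 in WT. By summed UMIs they were at 59.3 and 56.4, ranks 13 and 15 of 20, so their place among the lowest depended on the weighting. The 4th lowest cluster was C09 (macrophages) in S303/7A, at 53.55, and C07 (monocytes) in WT, at 50.2. All intervals cover counting error only.

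Over the 20 clusters, large subunit members summed to 2.02 (C06) to 2.56 (C17) times the small subunit members in S303/7A. In WT the range was 2.06 (C06) to 2.47 (C07). The sum of large subunit members was 2.25 times that of small subunit members in C04 of S303/7A and 2.18 times in WT. It was 2.23 and 2.09 times in NK cells, and 2.56 and 2.25 times in C17. Across the 20 clusters the summed level followed the sum of 81 nuclear genes of the respiratory chain most closely among the lists compared (r = 0.773 in S303/7A and 0.701 in WT). The r with median depth was 0.567 and 0.585, with the sum of proliferation genes 0.573 and 0.542, and with mitochondrially encoded mRNAs 0.332 and 0.436. These are descriptions over 20 clusters that share a library and a denominator.

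Profiles over cell types were alike for many members and differed for others. For the 69 members with a mean of at least 0.2 CP10K, the range over 17 clusters with at least 50 cells in each library had a median of 1.28 on the log2 scale, against 1.79 for the 5206 genes at that level. Of these 69, 43 (62.3%) had their highest level in C04, C11 or C13, against 19.9% of all genes at that level. The median correlation of a member with the sum of the others was 0.60, and 42 of the 69 were above 0.5.

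**Figure D2:**
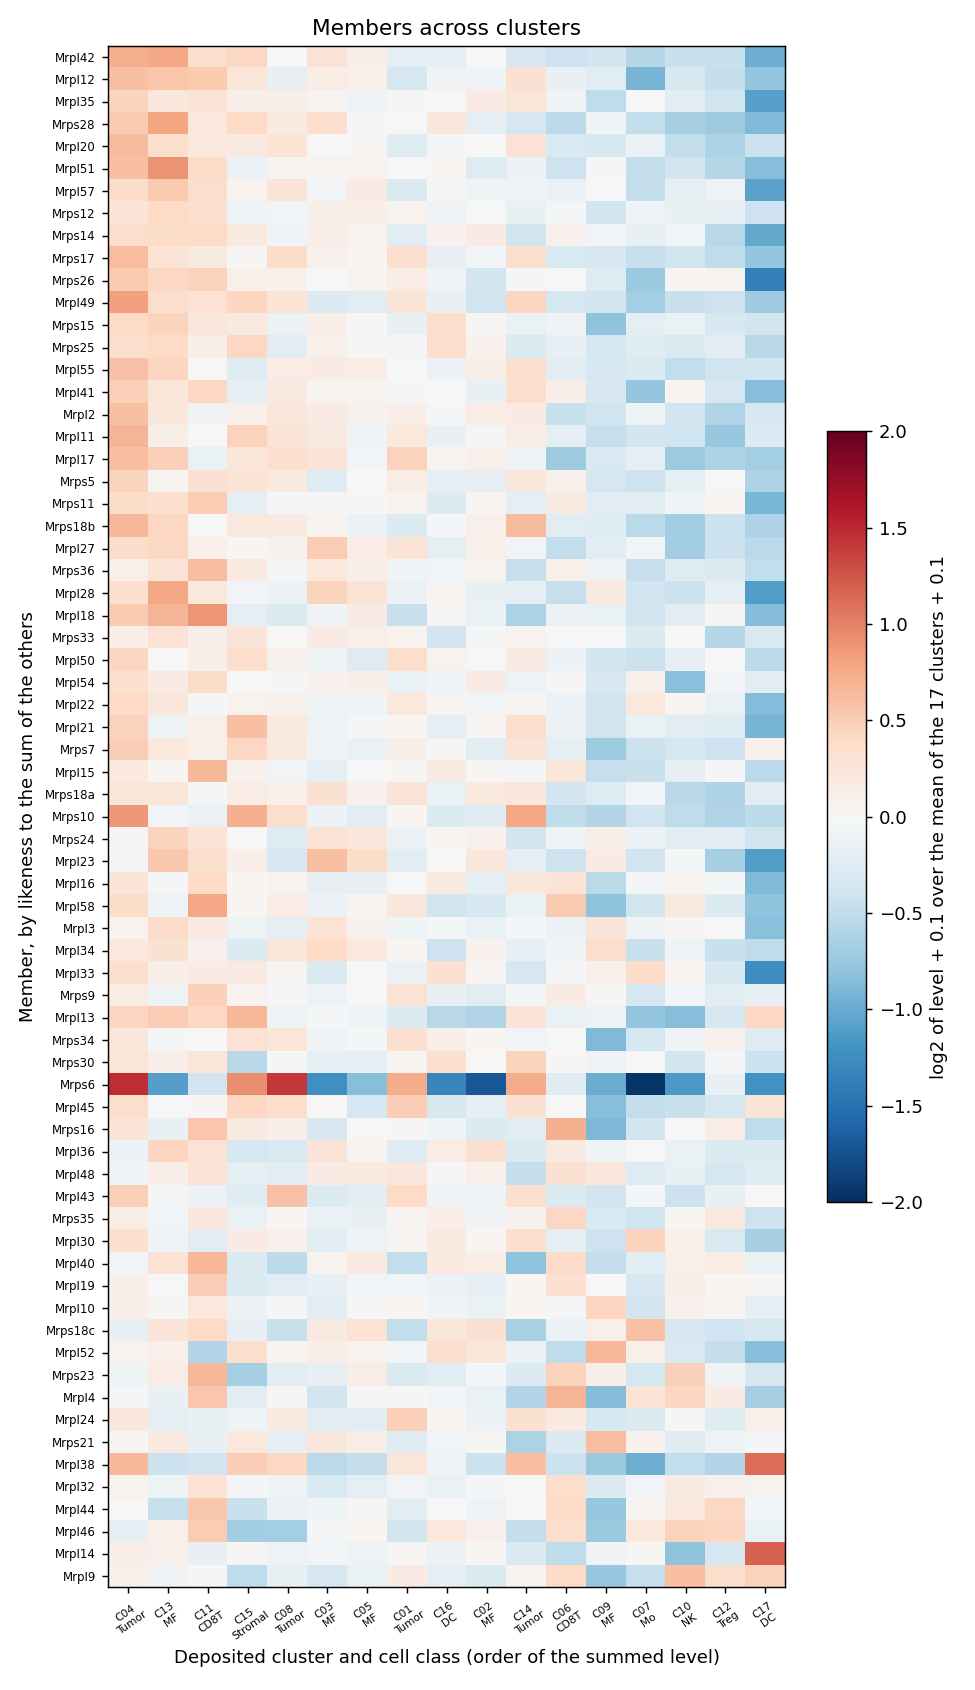
Level of 69 members (rows, ordered by how much their profile resembles the sum of the other members, most alike on top) in 17 clusters (columns, ordered by the summed level). Colour gives the log2 of the level over the member's mean, both with 0.1 CP10K added, averaged over the S303/7A and WT libraries. Most rows are red in C04, C13 and C11 at the left and blue in C17 at the right. Mrps6 has the widest contrast, red in tumor clusters and blue in monocytes and macrophages, and Mrpl38 and Mrpl14 are red in C17.

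Mrps6, a small subunit protein with a bacterial homologue, had the widest range, 3.44 on the log2 scale. It was high in tumor cells, at 2.06 CP10K in C04 of S303/7A and 2.12 of WT, and at 1.79 and 2.18 in C08. In monocytes (C07) it was at 0.0831 and 0.121, and in the macrophage cluster C02 at 0.132 and 0.151. Mrps6 shares its strand and locus with Slc5a3, and the part of that gene in these counts was not tested.

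Mrpl14 and Mrpl38 were highest in the dendritic cell cluster C17, which ranked 19 of 20 by the summed level of the members in both libraries. Mrpl14, the large subunit protein to which the assembly factor Malsu1 binds, was at 3.06 CP10K in C17 of S303/7A and 3.83 of WT. Its lowest level was in NK cells, at 0.735 and 0.849. Mrpl38 was at 0.877 and 1.27 in C17, and at 0.211 and 0.137 in monocytes.

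The next widest ranges were those of Mrps26 (1.90), Mrpl28 (1.89) and Mrpl42 (1.75), which were highest in C04 or C13 and lowest in C17. The narrowest were those of Mrpl32 (0.67), Mrpl36 (0.79), Mrpl48 (0.79), Mrpl10 (0.80), Mrps12 (0.81) and Mrps9 (0.82). Besides Mrpl14, the profiles least like the sum of the others were those of Mrpl9 (r = -0.33), Mrpl46 (r = -0.11) and Mrpl44 (r = -0.09). Over the same 17 clusters, by the mean of both libraries, Mrpl9 was highest in NK cells, and Mrpl44, which carries a ribonuclease III-like domain, and Mrpl46 in cycling CD8 T cells. In WT alone Mrpl9 was highest in C17, Mrpl44 in C06 and Mrpl46 in C10.

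By the mean of both libraries, the 3 paralogs named Mrps18 differed in where they were high. Mrps18b, a small subunit protein, was highest in cluster C04 with a mean of 0.605 CP10K over the libraries. Mrps18c, the bacterial-type protein, was highest in monocytes (1.38), and Mrps18a, which sits in the large subunit, in the macrophage cluster C03 (0.988). Only for Mrps18c was the highest cluster the same in both libraries. In WT alone Mrps18b was highest in C14, and in S303/7A alone Mrps18a was highest in C01, both tumor clusters. Mrps36, whose protein works in the oxoglutarate dehydrogenase complex, still followed the ribosomal members (r = 0.74) and was highest in C11 at 1.499 CP10K.

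Cycling cells were compared with other cells of their class in each library by itself. C11 was set against C06 in CD8 T cells, C13 against C02, C03, C05 and C09 in macrophages, and C04 against C01, C08 and C14 in tumor cells. The clusters were made by the authors from the same cells, so these differences are descriptions. All 20 proliferation genes of the list were past the fold higher (a log2 ratio above 0.32) in the cycling cluster in all 6 comparisons. In tumor cells of S303/7A, for example, they summed to 24.8 CP10K in C04 and 1.77 in the other clusters.

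Mitochondrial ribosomal protein transcripts took a larger share of UMIs in the cycling cluster of each class. In CD8 T cells they summed to 72.9 CP10K in C11 and 57.5 in C06 in the S303/7A library, and to 74.9 and 60.2 in the WT library. The ratio of summed UMIs was 1.28 (1.254 to 1.31) in S303/7A and 1.24 (1.21 to 1.27) in WT, each with an exact conditional 95% interval. In macrophages the sum was 74.4 in C13 and 60.8 elsewhere in S303/7A, and 76.5 and 62.0 in WT, with UMI ratios of 1.19 (1.18 to 1.204) and 1.18 (1.15 to 1.201). In tumor cells it was 79.2 in C04 and 61.0 elsewhere in S303/7A, and 81.7 and 63.9 in WT, with UMI ratios of 1.27 (1.26 to 1.29) and 1.26 (1.26 to 1.27). Cycling cells were also deeper, with a median of 13510 UMIs in C11 and 7035 in C06 of S303/7A, and 9747 and 4577 in WT. With every cell thinned to 1000 UMIs the ratios remained between 1.18 and 1.29.

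Single members were called higher or lower past a fixed fold, a log2 ratio of 0.32 either way with 0.1 CP10K added to each level. In CD8 T cells 34 of 75 measured members were higher in C11 in the S303/7A library (24% of all genes measured were) and 26 of 75 in the WT library (23.8% of genes). In macrophages the counts were 23 of 76 (16.2% of genes) and 22 of 75 (22.9% of genes), and in tumor cells 31 of 76 (20.1% of genes) and 34 of 77 (21.5% of genes). Lower past this fold were 1 and 2 members in CD8 T cells (18.9% and 20.6% of genes), 0 and 1 in macrophages (8.74% and 17.4%), and 0 and 0 in tumor cells (20.5% and 17.9%). The rise was thus broad and modest, with few members falling. In all 6 comparisons at once, 52 of 74 members were above 0, which was 70.3% of members and 27.6% of genes.

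The 11 members past the fold in all 6 comparisons were Mrpl12, Mrpl13, Mrpl18, Mrpl20, Mrpl28, Mrpl42, Mrpl49, Mrpl51, Mrpl57, Mrps26 and Mrps28. These 11 were chosen after their values were seen. They were 14.9% of the 74 members measured in all 6, against 8.77% of genes. Mrpl18, a bacterial-type large subunit protein that has a cytosolic form in heat-shocked cells, had the highest mean log2 ratio, 0.89. It was at 2.64 CP10K in C11 and 1.19 in C06 of S303/7A, and at 3.02 and 1.56 in WT, with UMI ratios of 2.21 (1.95 to 2.51) and 1.92 (1.68 to 2.19). In tumor cells Mrpl18 was at 2.08 in C04 and 1.03 elsewhere in S303/7A, and at 2.32 and 1.15 in WT.

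Mrpl51, Mrpl42 and Mrpl12 followed. Mrpl51, specific to mitochondria, had a mean log2 ratio of 0.79 and was at 2.14 CP10K in C13 and 1.10 in other macrophages of S303/7A, and at 2.24 and 1.07 in WT. Mrpl42 had a mean of 0.78, and was at 2.52 in C04 and 1.22 in other tumor cells of S303/7A, against 2.48 and 1.41 in WT. Mrpl12, the stalk protein at which translation factors bind, had a mean of 0.68, and was at 1.79 in C11 and 0.955 in C06 of S303/7A, against 1.83 and 1.22 in WT. The abundant Mrpl52 did not share the rise, with log2 ratios of -0.21 to 0.14. Mrpl24 had the lowest mean, -0.15, and in CD8 T cells it was at 0.887 in C11 and 1.15 in C06 of S303/7A, and 0.932 and 1.21 in WT.

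**Figure D3:**
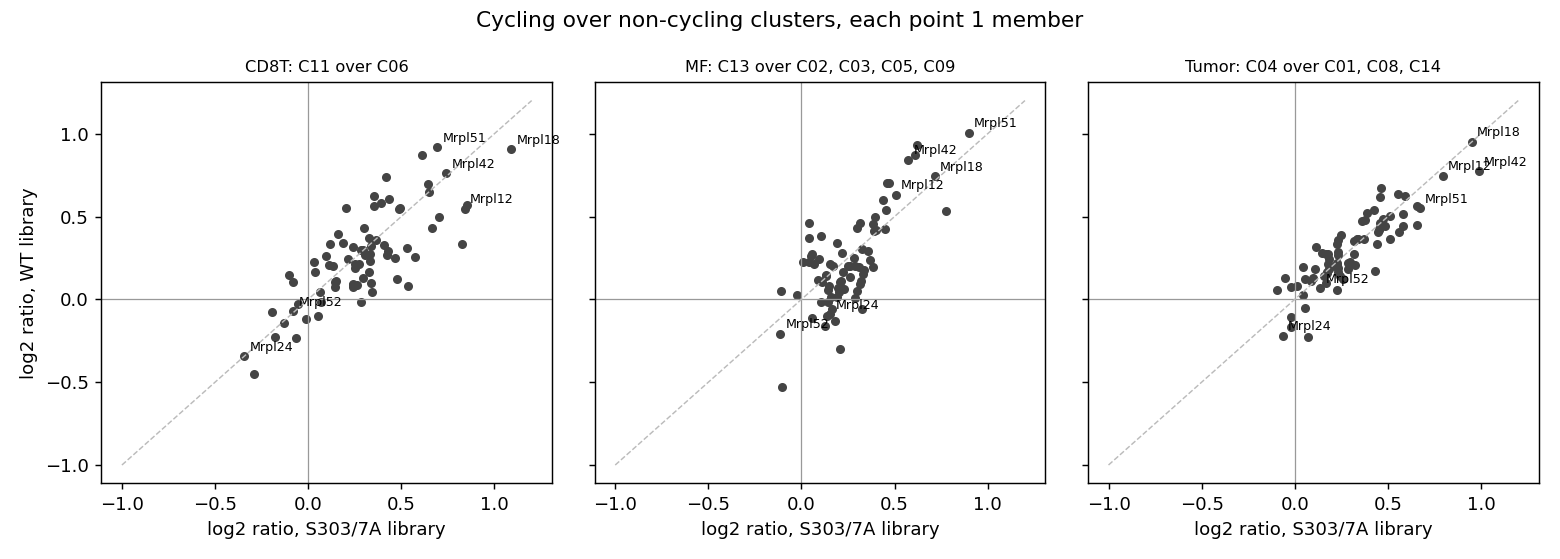
Log2 ratio of cycling over non-cycling clusters for each member in the S303/7A library (horizontal axis) and the WT library (vertical axis), in CD8 T cells, macrophages (MF) and tumor cells. The dashed line marks equal ratios. Most points lie above 0 on both axes, with Mrpl18, Mrpl42, Mrpl12 and Mrpl51 toward the upper right and Mrpl24 and Mrpl52 near or below 0.

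Members of both subunits were among those higher past the fold in each comparison, set against the 16.2% to 24% of genes given above. Of bacterial-type small subunit members, 8 of 15 in S303/7A and 6 of 15 in WT were in CD8 T cells, 5 of 16 and 5 of 16 in macrophages, and 8 of 16 and 9 of 16 in tumor cells. Of mitochondria-specific small subunit members, 4 of 9 in S303/7A and 2 of 9 in WT were in CD8 T cells, 3 of 9 and 4 of 8 in macrophages, and 4 of 9 and 5 of 10 in tumor cells. The shares nearest the background were the 2 of 9 in WT CD8 T cells and those of the large subunit in WT macrophages. Of 30 bacterial-type large subunit members, 14 in S303/7A and 11 in WT were past the fold in CD8 T cells, 8 and 8 in macrophages, and 11 and 11 in tumor cells. Of 20 mitochondria-specific large subunit members, 7 in S303/7A and 6 in WT were in CD8 T cells, 7 and 5 in macrophages, and 8 and 9 in tumor cells. Nuclear genes of the respiratory chain rose less, with median log2 ratios in S303/7A and WT of 0.24 and 0.201 in CD8 T cells, 0.14 and 0.10 in macrophages, and 0.19 and 0.16 in tumor cells. The members' own medians were 0.29 and 0.25, 0.21 and 0.199, and 0.245 and 0.27. Genes of cytosolic ribosomal proteins were near 0 or below, at -0.13 and -0.03, -0.13 and 0.06, and 0.04 and 0.01. Factors that assemble the mitoribosome were at 0.03 and -0.19, -0.01 and -0.05, and -0.05 and 0.09. The mRNAs that the mitoribosome translates summed to 328 CP10K in C04 and 382 in other tumor cells of S303/7A, and to 325 and 391 in WT.

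Between the genotypes, S303/7A and WT, the members' summed UMIs had ratios from 0.905 to 1.13 in the 8 classes with at least 50 cells in each library, and the direction was not common to them. For members that reached 0.1 CP10K in either library, the median log2 ratio is given beside that of all genes measured in the class. It was 0.05 in NK cells (all genes -0.03), -0.08 in CD8 T cells (-0.02), -0.01 in regulatory T cells (-0.06) and 0.02 in macrophages (0.02). It was 0.20 in monocytes (0.06), 0.01 in dendritic cells (0.00), 0.10 in cluster C15 (-0.08) and -0.13 in tumor cells (-0.03). Under the other settings tried the sign held in monocytes, CD8 T cells and tumor cells, and turned under at least 1 setting in each of the other 5.

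**Figure D4:**
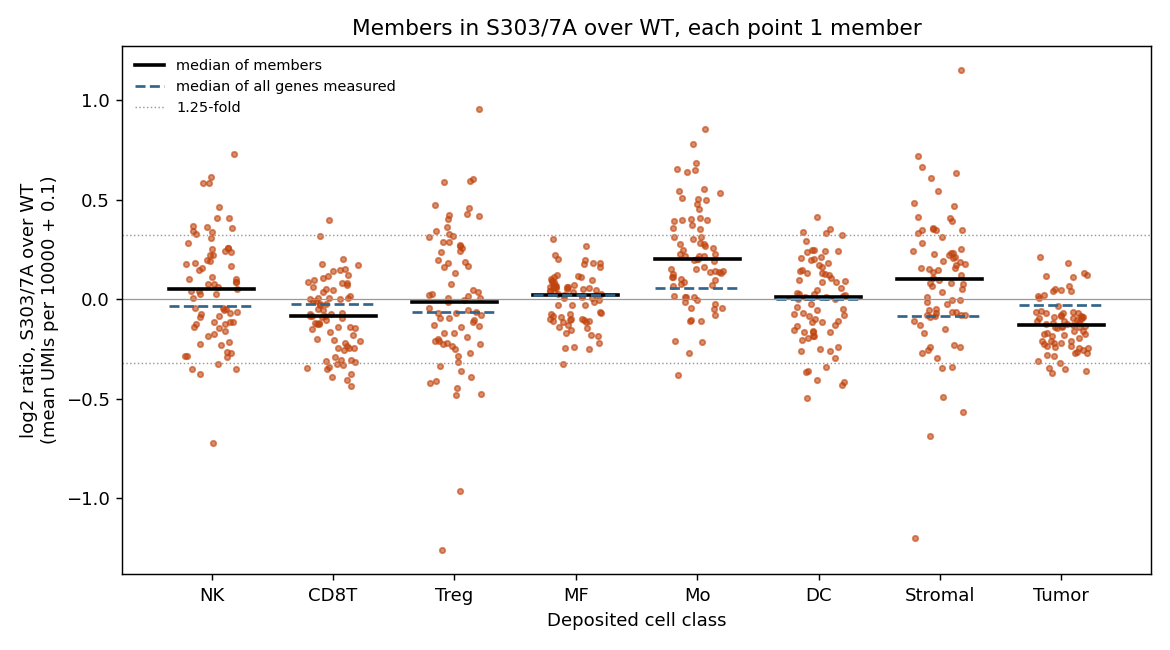
Log2 ratio of S303/7A over WT for each measured member (points) in 8 deposited classes, on the scale of mean UMIs per 10000 with 0.1 added. Black lines are the medians of members, dashed lines the medians of all genes measured, and dotted lines mark a log2 ratio of 0.32 either way. Members lie mostly above 0 in monocytes (Mo) and mostly below 0 in tumor cells.

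In NK cells the members as a group were nearly level between genotypes. They summed to 54.2 CP10K in 194 S303/7A cells and 51.6 in 357 WT cells, a UMI ratio of 1.05 (1.01 to 1.08). Of 75 measured members, 13 were higher past the fold (13.9% of genes were) and 5 lower (18.6% of genes). The interval lay wholly above 1 for 7 (5.74% of genes) and wholly below 1 for 3 (8.06% of genes). With mitochondrially encoded and cytosolic ribosomal protein genes left out of the denominator the split was 20 higher (20.9% of genes) and 1 lower (16.8%). In thinned cells it was 17 and 18 (30.1% and 29.7% of genes), with a median of -0.02. Macrophage markers summed to 9.25 CP10K in S303/7A NK cells and 3.23 in WT NK cells, and their part in these values was not tested.

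The 5 highest members in NK cells were Mrpl45, Mrps5, Mrpl20, Mrpl23 and Mrpl50. Mrpl20, a bacterial-type large subunit protein, was at 1.58 CP10K in S303/7A and 1.02 in WT (195 and 156 UMIs, UMI ratio 1.42, 1.15 to 1.77), and its log2 ratio of 0.58 was 0.00 in thinned cells. Mrpl23, which lines the exit of the protein tunnel, was at 1.90 and 1.24 (1.52, 1.24 to 1.85). Mrpl45, which holds the ribosome to the inner membrane, rested on 38 and 24 UMIs (1.80, 1.05 to 3.14) and had a log2 ratio of 0.73, which was -1.11 in thinned cells. The intervals of Mrps5 and Mrpl50 reached below 1.

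The 5 lowest in NK cells were Mrpl47, Mrps23, Mrpl12, Mrpl24 and Mrpl44. Only Mrpl24 of these 5 had an interval wholly below 1. It was at 0.908 CP10K in S303/7A and 1.18 in WT (UMI ratio 0.734, 0.571 to 0.939). Mrpl47, at 0.0754 and 0.189, rested on 11 and 24 UMIs (0.521, 0.230 to 1.11).

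In CD8 T cells the members took a smaller share in S303/7A. They summed to 61.8 CP10K in 617 S303/7A cells and 66.7 in 693 WT cells, a UMI ratio of 0.926 (0.913 to 0.940). Of 75, 1 was higher past the fold (7.17% of genes) and 9 were lower (9.98% of genes), with 3 intervals wholly above 1 (13.4% of genes) and 24 wholly below (18.1% of genes). The fold counts were 2 higher (6.36% of genes) and 3 lower (6.99%) with C06 and C11 weighted equally, where the median was -0.03. The cycling cluster C11 held 28.5% of CD8 T cells in S303/7A and 44.2% in WT, and 19 of 20 proliferation genes were lower past the fold. Macrophage markers summed to 9.64 CP10K in S303/7A and 3.59 in WT, and their part was not tested. Within C06 alone the UMI ratio of the members was 0.948 (0.927 to 0.970), and within C11 alone 0.981 (0.962 to 0.9998).

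Mrpl18 was the lowest member in CD8 T cells, at 1.60 CP10K in S303/7A and 2.20 in WT (UMI ratio 0.752, 0.692 to 0.816). Mrpl16, at 0.389 and 0.549, had a UMI ratio of 0.715 (0.599 to 0.853). Mrpl58, a peptidyl-tRNA hydrolase that frees stalled ribosomes and is built into the large subunit, was at 1.19 and 1.58 (0.749, 0.677 to 0.830). Mrpl34 (0.813, 0.721 to 0.918) and Mrps31 (0.738, 0.526 to 1.03) completed the 5 lowest. The log2 ratio of Mrpl18 was -0.43, -0.24 with the clusters weighted equally and -0.14 in thinned cells. At the other end Mrpl52 was at 2.04 and 1.53 (1.38, 1.26 to 1.51), followed by Mrpl47, Mrpl23, Mrps5 and Mrps18c.

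In macrophages no member was higher past the fold (7.81% of genes) and 1 of 76 was lower (7.89% of genes). The sum was 62.6 CP10K in 2082 S303/7A cells and 63.1 in 1983 WT cells, a UMI ratio of 0.984 (0.976 to 0.992). The member past the fold was Mrpl30, at 1.83 in S303/7A and 2.32 in WT (0.797, 0.762 to 0.834). The next lowest were Mrpl34, Mrpl32, Mrps18a and Mrpl21, with UMI ratios of 0.824 to 0.859. The highest were Mrps31, Mrps26, Mrpl23, Mrps28 and Mrpl2, of which Mrps26 was at 0.766 and 0.619 (1.10, 1.02 to 1.19). Intervals lay wholly above 1 for 11 members (27.7% of genes) and wholly below 1 for 19 (21.9% of genes). Median depth in macrophages was 2.61 times that of WT. Macrophage markers summed to 220 CP10K in S303/7A and 102 in WT macrophages, and monocyte markers to 12.5 and 50.5. The cycling cluster C13 held 13.2% of macrophages in S303/7A and 8.02% in WT, and C09 held 10.0% and 19.5%. Within single clusters the UMI ratio of the members was lowest in C03, at 0.922 (0.906 to 0.939), and between 0.960 and 0.987 in the other 4. The part of these in the result was not tested.

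Monocytes, all in cluster C07, showed the highest ratio. The members summed to 57.6 CP10K in 267 S303/7A cells and 50.2 in 519 WT cells, a UMI ratio of 1.13 (1.11 to 1.16). Of 75 measured members 61 were above 0 (81.3%, against 56.9% of genes). Past the fold, 22 were higher (22.2% of genes) and 1 was lower (13.7% of genes), so the count past the fold was near the background while the median was not. Intervals lay wholly above 1 for 24 members (20.3% of genes) and wholly below 1 for 1 (15.8% of genes). The highest after Mrpl23 were Mrps9, at 0.337 and 0.155 (1.99, 1.35 to 3.00), Mrpl57, at 1.17 and 0.692 (1.58, 1.31 to 1.92), and Mrpl46, at 0.410 and 0.224 (1.71, 1.23 to 2.40). Mrpl30 was the exception, at 2.72 and 3.57 (0.741, 0.668 to 0.820). The genes named here for monocytes were chosen after their values were seen.

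Genes of other ribosomal and respiratory functions moved with the members in monocytes. Of 83 cytosolic ribosomal protein genes 57 were higher past the fold and 0 lower (median 0.40), and of 76 respiratory chain genes 22 were higher and 1 lower (median 0.21). Of 6 mitochondrial translation factors measured, 6 were above 0 (median 0.29), with Mtif2, the initiation factor, highest. The mitochondrially encoded mRNAs did not follow, with 4 of 12 above 0 (median -0.08). Macrophage markers summed to 65.4 CP10K in S303/7A monocytes and 30.3 in WT monocytes, and monocyte markers to 118 and 209. Median depth was 2.10 times that of WT. The part of these in the result was not tested.

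Tumor cells showed the lowest ratio. The members summed to 63.6 CP10K in 935 S303/7A cells and 69.8 in 2332 WT cells, a UMI ratio of 0.905 (0.900 to 0.910). Of 75, 61 were below 0 (81.3%, against 57.3% of genes). No member was higher past the fold (3.29% of genes) and 4 were lower (6.48% of genes), while intervals lay wholly above 1 for 7 (24.4% of genes) and wholly below 1 for 55 (36.8% of genes). The cycling cluster C04 held 14.2% of S303/7A tumor cells and 33.4% of WT tumor cells, and 19 of 20 proliferation genes were lower past the fold. With the clusters weighted equally the median was -0.10, and 0 members were past the fold (2.39% of genes were higher and 2.89% lower). Within single clusters the UMI ratio was 0.989 (0.979 to 0.999) in C01, 0.964 (0.954 to 0.975) in C04, 0.939 (0.929 to 0.9498) in C08 and 0.907 (0.894 to 0.921) in C14.

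The 5 lowest members in tumor cells were Mrpl12, Mrpl18, Mrpl28, Mrps25 and Mrps12, of which Mrps12 fell just short of the fold. Mrpl12 was at 1.10 CP10K in S303/7A and 1.45 in WT (UMI ratio 0.753, 0.723 to 0.783), and Mrpl18 at 1.18 and 1.54 (0.737, 0.709 to 0.767). Mrpl12, Mrpl18 and Mrpl28 are among the 11 members past the fold in all 6 comparisons of cycling cells. With the clusters weighted equally the log2 ratio was -0.20 for Mrpl12 and -0.15 for Mrpl18, against -0.37 and -0.36 over all tumor cells. The 5 highest were Mrpl33, Mrps18c, Mrpl9, Mrps21 and Mrpl52, with UMI ratios of 1.09 to 1.16. Of the lists around the mitoribosome, respiratory chain genes were at a median of 0.02 in tumor cells, mitochondrial translation factors at 0.05 and cytosolic ribosomal proteins at 0.09.

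In the 3 remaining classes the shares past the fold were under those of all genes. Regulatory T cells had 13 of 75 members higher (18.9% of genes) and 10 lower (27.4%), with a UMI ratio of 1.05 (1.01 to 1.10). Intervals lay wholly above 1 for 3 (4.12%) and wholly below 1 for 1 (9%). Dendritic cells had 5 higher (13.8%) and 7 lower (14.7%), with a ratio of 0.985 (0.962 to 1.01) and intervals above 1 for 4 (10.1%) and below 1 for 8 (11.4%). Cluster C15 had 17 of 76 higher (23.7%) and 6 lower (36%), with a ratio of 0.991 (0.960 to 1.02) and intervals above 1 for 4 (5.86%) and below 1 for 5 (16.5%). By summed UMIs the counts in C15 were 4 higher (10.7% of genes) and 13 lower (35.4%).

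Between the genotypes, 1 of 74 members was above 0 in all 8 classes, as were 3.77% of the 4482 genes measured in them, and 2 of 74 were below 0 in all, as were 3.48% of genes. Members thus did not keep 1 direction more often than genes in general. Mrpl33, a bacterial-type large subunit protein, was above 0 in all 8 classes and in all 17 clusters with at least 50 cells in each library. It was at 2.43 CP10K in S303/7A NK cells and 1.94 in WT NK cells (UMI ratio 1.29, 1.09 to 1.52), and at 2.02 and 1.63 in dendritic cells (1.22, 1.06 to 1.40). In tumor cells it was at 2.27 and 1.95 (1.16, 1.12 to 1.19), and the interval lay wholly above 1 in 11 of the 17 clusters. Of 72 members measured in the 17 clusters it was the 1 above 0 in all, as were 0.891% of 4040 genes. Mrpl33 overlaps Rbks on the opposite strand, and 33.3% of the words in its last 500 bases are shared with another annotated gene.

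Mrpl52 and Mrpl23 were above 0 in 7 of 8 classes each. Mrpl52 was at 2.44 CP10K in S303/7A and 1.81 in WT NK cells (1.31, 1.10 to 1.56), and its exception was macrophages, at 3.06 and 3.22. Mrpl23, whose values are uncertain for the copy named above, was at 1.55 and 0.814 in monocytes (1.98, 1.67 to 2.36) and at 2.28 and 1.94 in macrophages (1.19, 1.13 to 1.24). Its exception was C15, at 1.71 and 1.81.

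**Figure D5:**
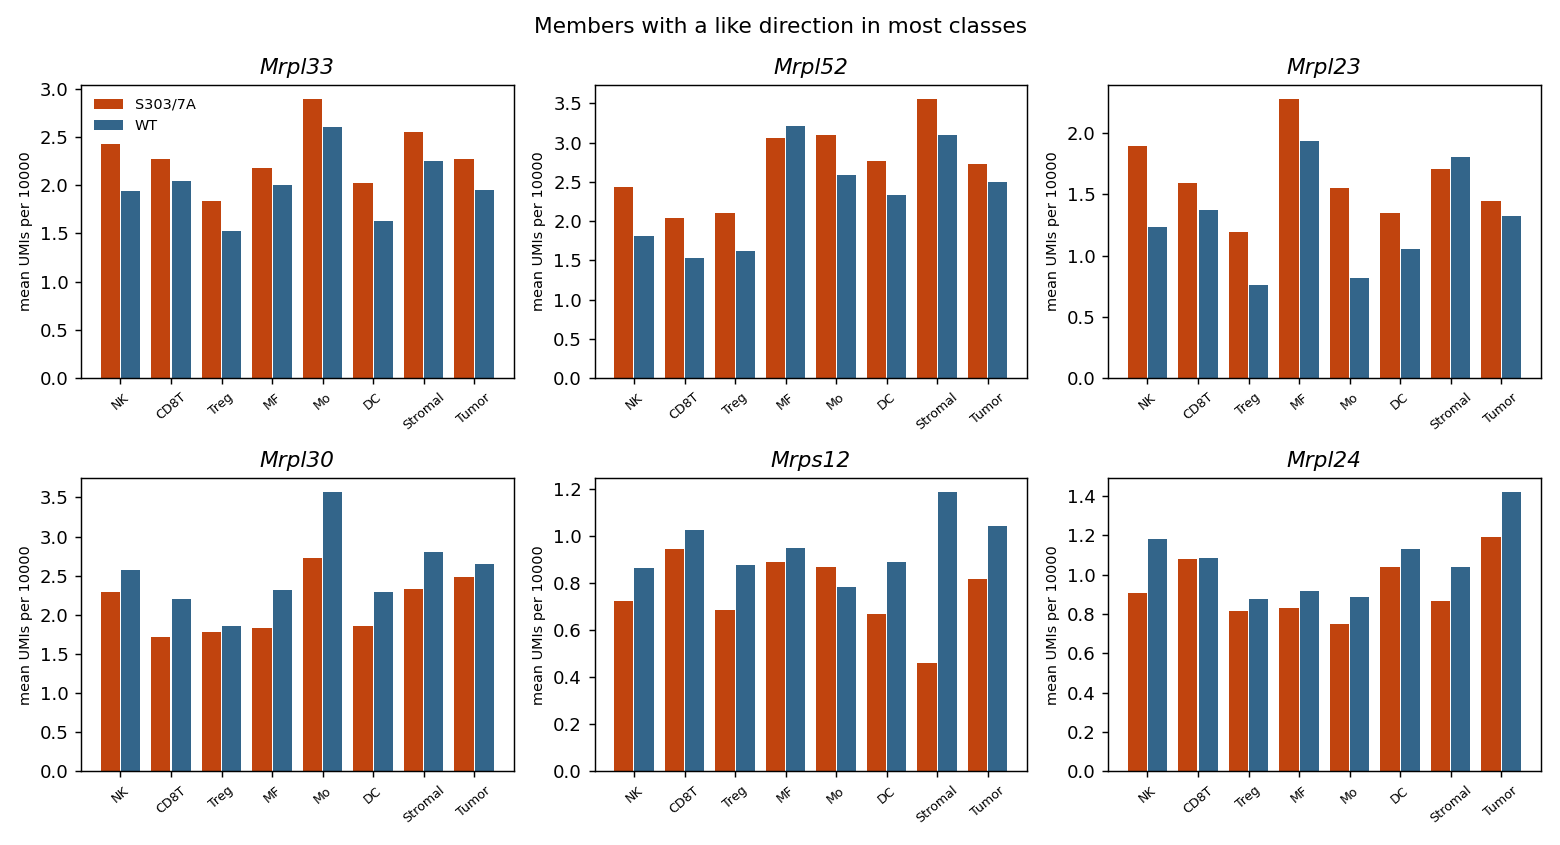
Level (mean UMIs per 10000) of 6 members in S303/7A (left bar of each pair) and WT (right bar) for 8 deposited classes. Mrpl33 is higher in S303/7A in all 8, Mrpl30 and Mrpl24 lower in all 8, and Mrpl52, Mrpl23 and Mrps12 each have 1 class that goes the other way.

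Mrpl30 and Mrpl24, both bacterial-type large subunit proteins, were below 0 in all 8 classes and in 16 of 17 clusters. They were 2 of 72 members below 0 in at least 16 clusters, as were 2.35% of genes. Mrpl30 was at 1.72 CP10K in S303/7A and 2.20 in WT CD8 T cells (0.767, 0.702 to 0.837), and at 1.86 and 2.30 in dendritic cells (0.8003, 0.708 to 0.906). In regulatory T cells the sign depended on the weighting, with 1.79 and 1.85 CP10K but a UMI ratio of 1.03 (0.826 to 1.28), as it did for Mrpl24 (1.05, 0.764 to 1.45). Its interval lay wholly below 1 in 9 of 17 clusters. Mrpl24 was at 1.19 and 1.42 in tumor cells (0.850, 0.816 to 0.885), and its interval lay wholly below 1 in 6 clusters. Mrps12, the protein of the decoding centre, was below 0 in 7 of 8 classes, with monocytes as the exception at 0.868 and 0.781. In dendritic cells Mrps12 was at 0.670 and 0.890 (0.754, 0.618 to 0.921), and in C15 it was at 0.460 and 1.19 on 60 and 90 UMIs (0.692, 0.490 to 0.969). These 6 genes were singled out after their values were seen.

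Proteins of the mitoribosome that carry other names were described as a fixed list of Dap3, Ptcd3, Chchd1, Aurkaip1 and Gadd45gip1, with Ict1 entered in the table as Mrpl58. Gadd45gip1, a large subunit protein, differed most. It was at 0.814 CP10K in S303/7A and 0.346 in WT macrophages (UMI ratio 2.26, 2.05 to 2.50), and at 0.589 and 0.194 in monocytes (3.24, 2.31 to 4.64). In CD8 T cells it was at 1.06 and 0.501 (2.01, 1.75 to 2.31) and in NK cells at 0.764 and 0.364 (2.10, 1.48 to 3.00). In tumor cells it was at 1.06 and 1.19 (0.884, 0.847 to 0.923). In regulatory T cells it was at 0.971 and 0.351 (3.29, 2.12 to 5.33). The cause of these differences was not tested.

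The other 4 differed less. Aurkaip1, a small subunit protein, was at 2.10 CP10K in S303/7A and 2.31 in WT CD8 T cells (0.870, 0.803 to 0.942), and at 2.01 and 2.39 in tumor cells (0.839, 0.814 to 0.865). Chchd1, also of the small subunit, was at 1.31 and 1.28 in macrophages (1.00, 0.944 to 1.06) and 1.247 and 1.40 in tumor cells (0.872, 0.839 to 0.906). Dap3, a GTP-binding small subunit protein, was at 0.388 and 0.235 in monocytes (1.65, 1.18 to 2.33). Ptcd3 was under 0.12 in every class.

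Around the ribosome, the median log2 ratio of S303/7A over WT was above 0 in all 8 classes for cytosolic ribosomal protein genes, from 0.07 in C15 to 0.40 in monocytes. For respiratory chain genes it was also above 0 in all 8, from 0.02 in tumor cells to 0.25 in C15. In NK cells, where 45.6% of all genes measured were above 0, 61 of 74 respiratory chain genes were above 0 (17 higher and 0 lower past the fold), and 70 of 83 cytosolic ribosomal protein genes (22 higher and 0 lower). In tumor cells, where 42.7% of all genes were above 0, 43 of 74 and 52 of 83 were. Genes for regulators of mitochondrial genes were below 0 in 7 of 7 cases in NK cells (median -0.20; 54.4% of all genes were below 0), from Yy1 at the upper to Gabpa at the lower end. In tumor cells 6 of 7 were below 0 (57.3% of all genes), with Myc lowest. Assembly factors of the mitoribosome had 6 of 13 above 0 in NK cells, 8 of 13 in CD8 T cells (45.5% of all genes), 6 of 9 in macrophages (54.6%), 8 of 9 in monocytes (56.9%) and 6 of 10 in tumor cells, with Rbfa, which matures the small subunit, highest in CD8 T cells, macrophages and monocytes.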

How the data were processed

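Expression was deposited as natural log values, ln(1 + UMIs per 100000) per cell, rounded by the authors to 3 decimals; total UMI counts, gene counts and the mitochondrial percent of each cell were deposited as well. Per the submitters' processing notes, Cell Ranger and Seurat 3.0 were used, with mm10 and GRCm38 listed as builds; cell filters are not stated there. Undoing the log gave UMI counts within 0.1 of a whole number for 99.9% of nonzero values. Libraries, 22 clusters and 11 classes are the authors' deposited annotation; how they were made is not stated.

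Levels are means over cells of UMIs per 10000. Log2 ratios use a pseudocount of 0.1, which understates changes of low genes, and a gene was measured at 0.1 or more in 1 library. UMI ratios carry exact conditional (Clopper-Pearson) and pooled levels exact Poisson 95% intervals, for counting error only. Classes with at least 50 cells per library were compared. Named members are the 5 highest and 5 lowest ratios in NK, MF, CD8T and Tumor, the 6 widest and 6 narrowest ranges, the 8 highest levels, the 4 least alike profiles, and the Mrps18 paralogs and Mrps36. Others are said to be chosen after their values were seen. Cells were also thinned to 1000 UMIs, leaving out 63 S303/7A and 199 WT cells. No doublet was removed in the values reported; Scrublet in scanpy 1.11.5 marked 0.0833% of S303/7A and 0.827% of WT cells at its own threshold, so 215 and 361 cells of the highest scores were left out as an alternative. Computations were tested on simulated data and used Python 3.11.15, numpy 2.4.6, scipy 1.17.1 and pandas 2.3.3. Members, lists and settings were chosen with earlier results of these data known.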

Additional observations from a re-analysis of the deposited data

Results flagged for a closer look

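Monocytes and tumor cells moved in opposite directions between the genotypes. The summed members had an S303/7A over WT UMI ratio of 1.13 in monocytes and 0.905 in tumor cells. The pair was picked from these values, as the highest and the lowest ratio with intervals on opposite sides of 1. That the intervals do not meet follows from this choice, and they cover counting error only. With 1 library per genotype the difference between the classes was not tested.

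Among single members, Mrpl28 and Mrps26 were past a log2 ratio of 0.32 in opposite directions in different classes. The log2 ratio of Mrpl28 was 0.33 in NK cells and 0.39 in cluster C15, and -0.35 in CD8 T cells and -0.35 in tumor cells. That of Mrps26 was 0.53 in monocytes and -0.33 in CD8 T cells. Both belong to the 11 members that were higher in cycling cells in all 6 comparisons, and the cycling cluster held a smaller share of S303/7A cells in CD8T and Tumor. The part of these shares in the values, and the differences between classes, were not tested.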

How the results depend on the processing

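No paired analysis was possible because each genotype has 1 library. Of 60 class medians recomputed, 31 moved by less than the counting spread, 24 moved more and 5 turned to the other side of 0 from a value beyond that spread; of 120 counts, 40 moved by over 1.5 times. The ratio of cycling over non-cycling clusters stayed above 1 in every setting run. Depth limits single members in NK cells, regulatory T cells and C15, where many rest on under 100 UMIs. The causes were not tested.

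In cells thinned to 1000 UMIs the medians were -0.0205 in NK (sign changed), -0.0401 in C15 (sign changed), 0.00219 in MF, 0.161 in Mo, -0.0750 in Treg and -0.0739 in Tumor. Members higher and lower were 6 and 15 in CD8T (19.0% and 22.8% of genes), 21 and 19 in DC (30.6% and 29.3%), and 3 and 6 in MF (14.7% and 11.8%). They were 24 and 16 in Treg (27.4% and 30.9%) and 2 and 16 in Tumor (12.1% and 17.3%). Lower were 8 in Mo (24.2%), 18 in NK (29.7%) and 23 in C15 (43.5%). Mrpl45 and Mrpl50 in NK turned to -1.11 and -0.0911. The cycling ratio was 1.21 and 1.18 in MF of S303/7A and WT, and 1.24 in Tumor of S303/7A. Only for C15 did a setting move the median of all genes by over 0.1, by -0.20 in thinned cells.

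By summed UMIs the medians were -0.00677 in MF and -0.0712 in C15 (signs changed), and -0.0298 in DC and 0.0675 in Treg, also on the other side of 0. Counts were 2 higher in DC (11.4% of genes), 0 lower in MF (6.52%), 4 higher and 13 lower in C15 (10.7% and 35.4%) and 3 lower in Treg (23.7%). The cycling ratio was 1.19 and 1.18 in MF, and 1.27 and 1.26 in Tumor, and C04 over C17 was 1.73 in S303/7A.

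With mitochondrially encoded and cytosolic ribosomal protein genes out of the denominator the medians were -0.0206 in CD8T, 0.0538 in DC, 0.0510 in MF, 0.27 in Mo, 0.13 in NK and -0.11 in Tumor. Counts higher and lower were 3 and 5 in CD8T (13% and 8.74% of genes) and 1 and 0 in MF (10.3% and 7.41%). They were 20 and 1 in NK (20.9% and 16.8%), with 0 lower in Mo (11.4%). C04 over C17 was 2.15 and 2.18, and the cycling ratio 1.204 in CD8T and 1.19 in MF of S303/7A and 1.27 in Tumor of WT.

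With clusters weighted equally the medians were -0.0221 in MF (sign changed), -0.0338 in CD8T and -0.10 in Tumor. Counts higher and lower were 2 and 3 in CD8T (6.36% and 6.99% of genes) and 1 and 0 in MF (7.09% and 6.59%), with 0 lower in Tumor (2.89%). Centred on all genes the medians were -0.0603 in CD8T, 0.00139 in MF, 0.14 in Mo, 0.19 in C15, 0.0499 in Treg (other side of 0) and -0.10 in Tumor. There 2 members were higher in CD8T (8.53% of genes) and 2 lower in both Mo (17.3%) and NK (16.2%). At a pseudocount of 0.01 the medians were 0.24 in Mo and -0.15 in Tumor. Counts higher and lower there were 2 and 16 in CD8T (13% and 16.4% of genes). In MF 1 was higher (14.5%), and 2 were lower in Mo (18.1%) and 8 in Tumor (10.6%). With no filter on low values the Tumor median was -0.12. Without the highest doublet scores the DC median was -0.0289, with 2 higher in DC (13.5% of genes) and 0 lower in MF (8.06%).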
